A study of Homo sapiens with 2 samples.

Results

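The 34 genes described here are targets of p53, the transcription factor that responds to DNA damage and other stress. They were taken as a fixed list of gene symbols, matched to the symbols of the array's annotation. Of the 34, 32 had at least 1 probe set with a single gene symbol, among 18132 genes in all. BTG2 and FDXR were not analysed here. The 32 genes were read by 91 probe sets, which are groups of short probes that report 1 transcript or a few. Expression was measured in HCT116, a human colorectal carcinoma line, on 1 array of total RNA per group. The control carried a scrambled hairpin (Scr) and the other group carried the hairpin shSUN2-1 against SUN2, an inner nuclear membrane protein that links the nucleus to the cytoskeleton. Both groups were grown in DMEM with serum. The knockdown rests on 1 hairpin, and the labels do not give the time after its introduction or the number of cultures.

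In unstressed cells p53 is kept scarce by MDM2, a ubiquitin ligase whose own gene p53 induces. When p53 is stabilised it binds paired short motifs in or near its targets and raises their transcription. The targets fall into genes that hold the cell cycle, genes that promote death, genes that repair DNA, genes that restrain p53 itself, and genes of stress handling and metabolism. HCT116 is known as a line with wild-type p53 in which the cell cycle inhibitor CDKN1A responds strongly. The arrays report transcripts only. They show neither the p53 genotype nor the p53 protein, and the transcript of p53 itself was not analysed here.

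Promoter sequence was available for 28 of the 34 genes, from RefSeq on GRCh38.p14. Each window runs from 250 bases before a transcription start to 50 bases after it, and some genes have several starts. The p53 half-site, a motif of 10 bases that is its own reverse complement, matched exactly in 6 of the 41 windows (14.6%), against 6.21% of 22198 windows of protein-coding genes. A pair of half-sites, up to 13 bases apart and with at most 1 mismatch in each, lay in 7 of the 41 windows (17.1%), against 4.54%. Some of these windows overlap, and a pair may hold an exact half-site. The matches below are shown because they lie in genes whose values follow, with the half-sites in capitals and, for single half-sites, 10 bases on each side.
DDB2, a pair with 0 mismatches, chr11:47214979-47214999, plus strand: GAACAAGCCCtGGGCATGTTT
MDM2, a pair with 2 mismatches, chr12:68808923-68808942, plus strand: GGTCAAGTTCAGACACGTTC
FAS, chr10:88991299-88991328, plus strand: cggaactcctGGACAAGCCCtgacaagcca
SESN1, chr6:109009018-109009047, minus strand: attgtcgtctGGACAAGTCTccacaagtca
AEN, chr15:88621296-88621325, plus strand: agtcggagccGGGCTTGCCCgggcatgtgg
RPS27L, chr15:63157517-63157546, minus strand: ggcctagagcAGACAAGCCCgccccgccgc
The MDM2 pair starts 94 bases before the start site of its window, and the DDB2 pair covers bases 6 to 26 after the start. Further pairs with 2 mismatches lay in windows of CCNG1, FAS and SESN1. A match to the motif is a description of these letters and was not measured as binding.

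For contrast, the 250 bases before the start are shown for CDKN1A, the most studied arrest target, and for PMAIP1, the death target with the lowest difference between the arrays. Capitals mark GC boxes, GGGCGG or its reverse complement CCGCCC, where neighbouring copies may overlap.
CDKN1A, chr6:36678464-36678713, plus strand: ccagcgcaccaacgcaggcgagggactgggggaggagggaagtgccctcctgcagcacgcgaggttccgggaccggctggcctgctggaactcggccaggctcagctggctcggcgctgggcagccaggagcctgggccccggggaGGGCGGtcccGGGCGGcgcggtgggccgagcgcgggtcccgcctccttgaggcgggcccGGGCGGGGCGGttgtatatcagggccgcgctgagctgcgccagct
PMAIP1, chr18:59899746-59899995, plus strand: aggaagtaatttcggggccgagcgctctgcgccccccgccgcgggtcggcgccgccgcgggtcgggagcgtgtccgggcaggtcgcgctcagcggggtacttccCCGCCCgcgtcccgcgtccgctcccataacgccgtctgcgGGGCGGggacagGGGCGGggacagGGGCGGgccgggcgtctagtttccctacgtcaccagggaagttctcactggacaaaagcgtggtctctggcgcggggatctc
Each of these stretches held 4 GC boxes and no exact p53 half-site. Sequence farther from the start was not searched. A GC box was present upstream in 33 of the 41 windows of p53 targets (80.5%) and in 53.7% of all windows.

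The targeted gene, SUN2, read 497.7 in control cells and 407 in knockdown cells, a log2 difference of -0.28. Its 4 probe sets past the filter described below were all lower, from -0.39 to -0.07. The mean over all 6 was -0.21. All differences below subtract the control value from the knockdown value after log2(intensity + 16), and a pair of readings always gives the control first. With 1 array per group there is no test and no error between cultures. The only error is the scatter of probe set differences around the mean difference of their gene, an SD of 0.09 in log2. It was taken over 5786 genes with several probe sets past the filter given next. It is called the probe error below, although probe sets of a gene may also read different transcripts. A gene is represented by its brightest probe set, and genes were kept when its mean reached the median of all probe sets, an intensity of about 108. This left 12220 genes and 30 of the 32 p53 targets. The epithelial markers EPCAM, KRT8, KRT18 and KRT19 read 1342, 1041, 1872 and 2619 in the control and were higher in the knockdown by 0.14, 0.34, 0.32 and 0.22, with all 8 KRT8 probe sets between 0.34 and 0.58. Of 7 epithelial markers past the filter 6 were higher, differences of the size seen in the p53 targets, and the summed level of all 10 was 7925 and 9232. Of all genes 49.8% were higher, and 75.1% in the brightest quintile by signal, where these 4 named markers lie. CDH17, VIL1 and CEACAM5, also markers of colorectal epithelium, did not pass the filter. Of 19 fibroblast, immune and endothelial markers, 9 passed it, all 9 were lower in the knockdown array (-0.13 to -0.03), and their summed level over the 19 was 2395 and 2272. These markers were dim, at most 254 in the control. From the dimmest to the middle quintile by signal, only 31.3%, 39.2% and 45.4% of genes were higher. None was listed at 0, since background remains in the values. Of the 23 background control probe sets, 20 were lower in the knockdown, with a median reading of 69.3 and 67.1. Their control readings ran from 31.2 to 1425, so some lay above the filter level. The brightest of them had the largest drop, a difference of -0.33. The part of these markers and of background in any result was not tested. In RNA from whole cultures, a change in the cells present and a change of RNA per cell cannot be told apart.

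p53 targets were mostly higher in the knockdown array, by small amounts. Of the 30 kept, 25 were higher, where 49.8% of all genes were higher. Their median difference was 0.12, against -0.0009 for all genes, and their range was -0.23 to 0.39. A difference of at least 1.2-fold, which is 0.26 in log2, was found for 8 members in the upward direction, where 5.95% of all genes passed (727 genes). That share rose with signal, from 1.23% in the dimmest quintile of genes to 12.4% in the brightest, which held 5 of the 8 members. In the downward direction 0 members passed, where 0.884% of all genes did (108 genes). The split of genes past this size depends on the scaling: quantile normalization gave 376 higher and 242 lower, and loess 476 and 191. For 1.5-fold, 0 members were higher, against 0.336% of all genes, and 0 were lower, against 0.0245%. Without the filter all 32 genes counted: 25 were higher, against 41.9% of all genes, with a median of 0.11 against -0.02.

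**Figure D1:**
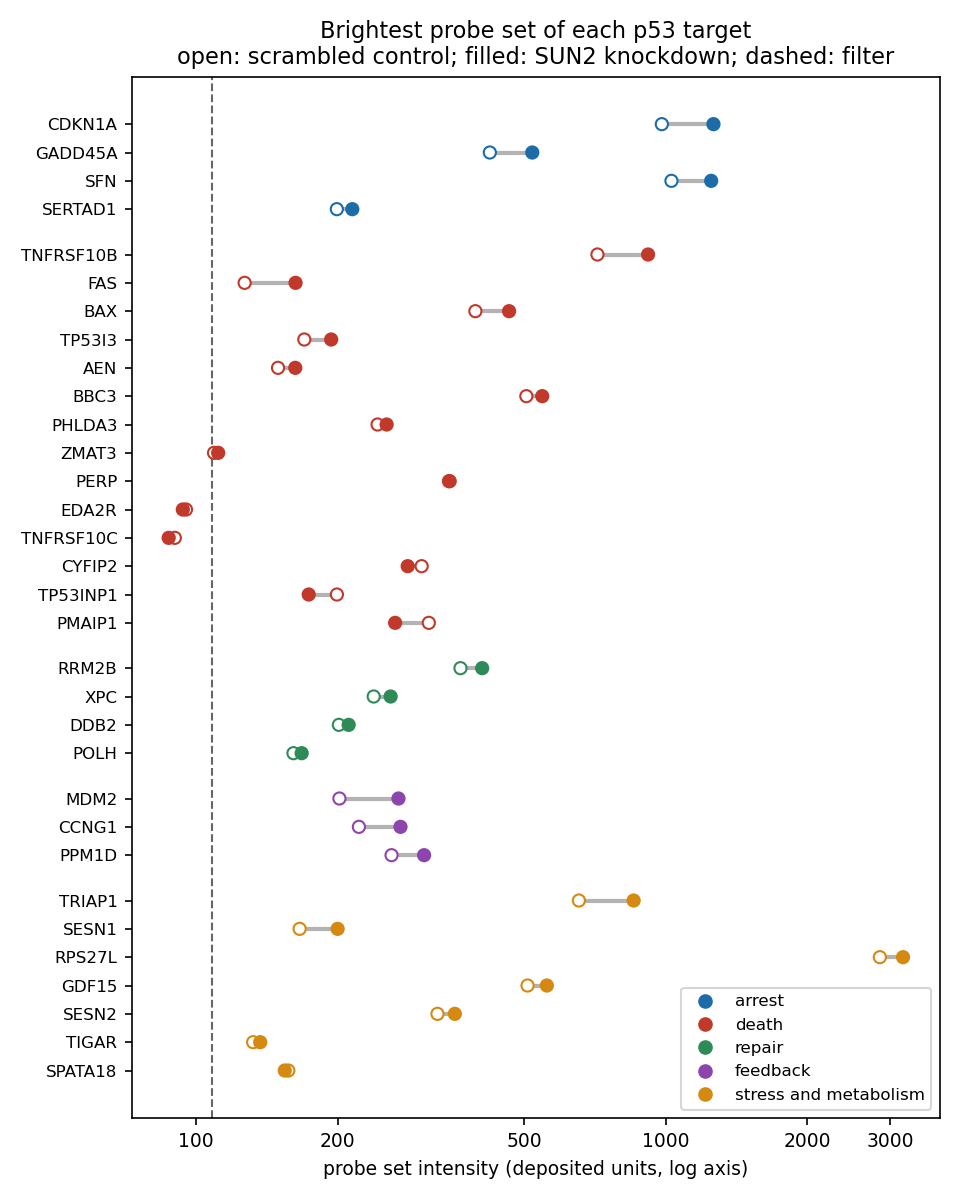
Intensity of the brightest probe set of each of the 32 p53 targets on the control array (open circles) and the knockdown array (filled circles), on a log axis, coloured by role, with the filter level of about 108 dashed. Each group is 1 array, so no error bar exists. Filled circles lie to the right of open ones for 25 genes, and PMAIP1 and TP53INP1 show the widest shifts to the left.

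The 4 arrest members kept were all higher, where 49.8% of all genes were higher. CDKN1A, which encodes the inhibitor p21 of cyclin-dependent kinases, read 981 in the control and 1263 in the knockdown, a difference of 0.36. Its other probe set read 399 and 558, a difference of 0.47, so both probe sets were higher. SFN, which encodes the 14-3-3 sigma protein that holds mitotic kinases in the cytoplasm, read 1028 and 1249 (0.28). GADD45A, a damage-induced protein that restrains the G2/M transition, read 422 and 520 (0.29). SERTAD1, a regulator of cyclin D kinases and E2F activity, read 199 and 215 (0.10). It counts as an arrest member only through the gene list used here, and whether it holds the cell cycle was not tested. The last 3 genes have 1 probe set each, and the SERTAD1 difference was about the size of the probe error. The median over the 4 genes was 0.28.

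The signal level matters for these arrest genes. CDKN1A, SFN and GADD45A fall in the brightest quintile of genes, where 75.1% of all genes were higher and the median difference was 0.10. After quantile normalization CDKN1A stood at 0.23, SFN at 0.15 and GADD45A at 0.21, and the arrest median at 0.18. After loess CDKN1A stood at 0.26 and SFN at 0.17. Each kept its direction, and all 3 lay below 1.2-fold after quantile normalization.

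The death members went both ways. Of the 12 kept, 8 were higher and 4 lower, where 49.8% of all genes were higher. Their median was 0.08. Over their 32 probe sets, dim ones included, 16 were higher and 16 lower, where 42.4% of all probe sets were higher.

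The death receptor genes gave the largest differences among them. TNFRSF10B, which encodes the TRAIL receptor DR5, read 715 and 917 (0.35). That probe set is of the _x_at class, whose probes may also bind other transcripts, and it was the only one of 3 past the filter. The others read 74.5 and 83.3, and 74.8 and 77.0, so both were also higher, at 0.13 and 0.03. TNFRSF10B fell short of 1.2-fold after quantile normalization (0.23), narrowly after loess (0.26) and as the mean of its probe sets (0.17). FAS, the receptor for Fas ligand, read 127 and 163 (0.32). The second FAS probe set read 109 and 147 (0.38). Both FAS probe sets therefore agreed in direction and size, at a control level close to the filter. The remaining receptors did not pass the filter. TNFRSF10C, a TRAIL receptor without a death domain, read 90.0 and 87.4, and EDA2R, a receptor for ectodysplasin A2, read 95.1 and 93.6.

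The BCL2 family members went opposite ways. BAX, which permeabilises the mitochondrial outer membrane, read 393 and 464 (0.23), and its second probe set read 294 and 331 (0.16). BBC3, which encodes the BH3-only protein PUMA, read 505 and 546 (0.11), whereas its second probe set read 130 and 128 (-0.02). PMAIP1, which encodes the BH3-only protein NOXA, read 313 and 265 (-0.23), with 294 and 273 (-0.10) on the other probe set. PMAIP1 was thus lower on both of its probe sets and had the lowest difference of any p53 target. Of all 12220 genes, 98.4% had a higher difference. After quantile normalization it stood at -0.27, past 1.2-fold.

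TP53INP1, a nuclear cofactor that promotes p53-dependent death, read 199 and 174 (-0.18), but only 174 and 171 (-0.02) on its second probe set. CYFIP2, a protein of the WAVE actin-regulatory complex, read 302 and 282 (-0.09), and its 3 probe sets above the filter level were each lower. Other death genes were higher by little. TP53I3, a quinone oxidoreductase linked to oxidative stress, read 170 and 194 (0.17), and AEN, an apoptosis-enhancing nuclease, read 149 and 163 (0.11). PHLDA3, a repressor of AKT, read 243 and 254 (0.06), but its 3 probe sets ran from -0.07 to 0.06 and their mean was -0.004. ZMAT3, an RNA-binding protein, read 109 and 111 (0.03), at the filter level, and its mean over both probe sets was -0.02. PERP, a desmosome component, read 347 and 345 (-0.005), which turned to 0.01 with median centring. None of PHLDA3, ZMAT3 and PERP differed by more than the probe error.

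**Figure D2:**
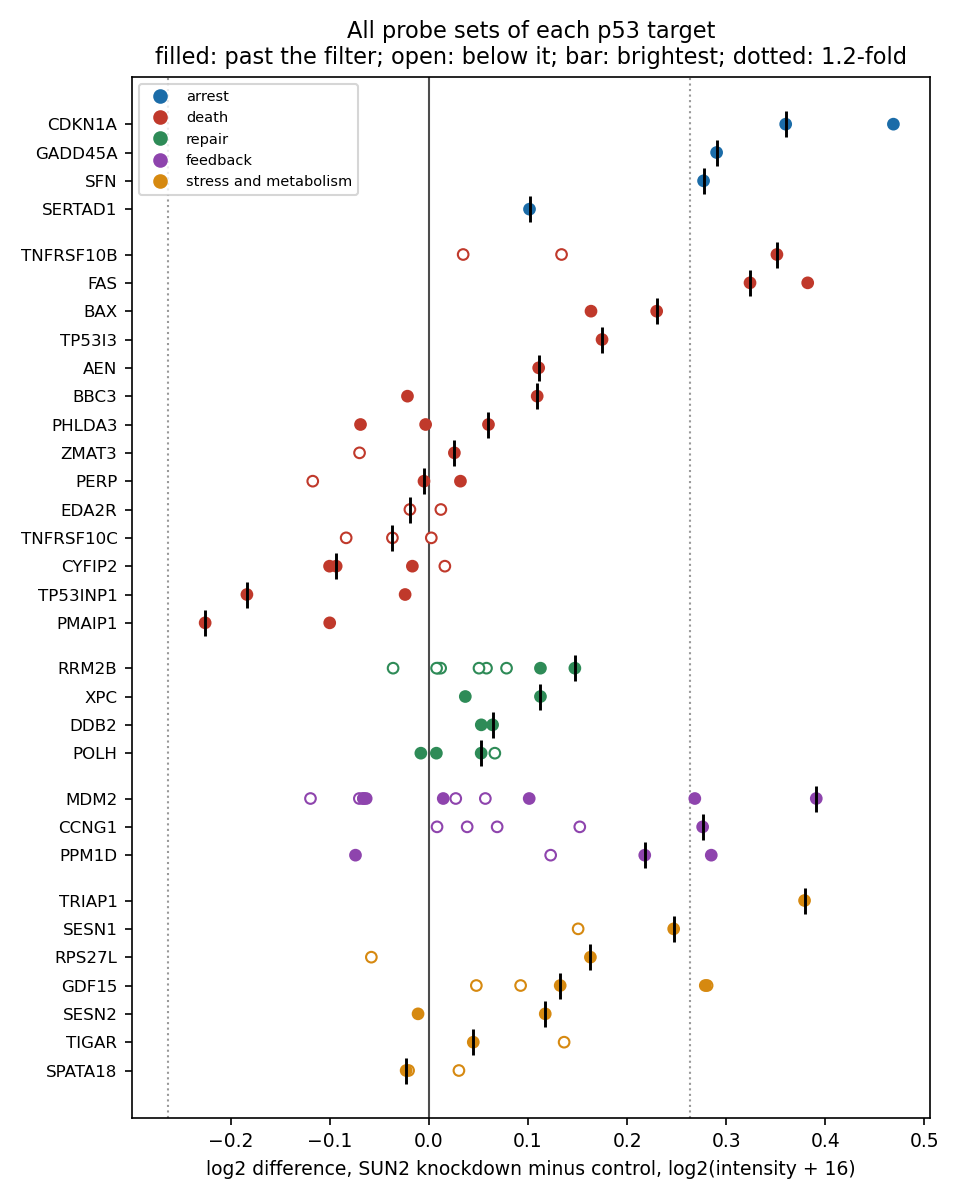
Log2 difference (knockdown minus control) of all 91 probe sets of the p53 targets, filled where they passed the filter and open below it, with a bar on the brightest of each gene and dotted lines at 1.2-fold. CDKN1A and FAS probe sets lie together to the right, those of PMAIP1 to the left, and the 11 MDM2 probe sets spread from -0.12 to 0.39.

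The 4 repair members were all higher on their brightest probe set, none by 1.2-fold. Of all genes 49.8% were higher, and 5.95% by at least 1.2-fold. RRM2B, the p53-inducible subunit of ribonucleotide reductase that supplies nucleotides for repair, read 365 and 406 (0.15). Of its 9 probe sets 8 were higher, and their mean was 0.05. XPC, which recognises helix-distorting lesions, read 239 and 259 (0.11), and 110 and 114 (0.04) on the other. DDB2, a sensor of ultraviolet damage, read 201 and 211 (0.06), and 188 and 196 (0.05) on the other. POLH, the polymerase that copies past ultraviolet lesions, read 161 and 168 (0.05) on a probe set of the _x_at class. Its others past the filter read 145 and 146 (0.008), and 123 and 122 (-0.008). The repair members ran from 0.05 to 0.15 with a median of 0.09. DDB2 and POLH differed by less than the probe error. DDB2, with the only half-site pair without a mismatch among the windows, was thus among the p53 targets with small differences.

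The 3 feedback members were all higher, against 49.8% of all genes, with a median of 0.28. MDM2 read 202 and 270 (0.39) on its brightest probe set, the highest difference of any p53 target. A second MDM2 probe set read 111 and 137 (0.27). The others past the filter were lower, or higher by at most 0.10, at 179 and 170 (-0.07), 139 and 132 (-0.06), 119 and 113 (-0.07), 112 and 113 (0.01), and 105 and 114 (0.10). Of all 11 MDM2 probe sets 6 were higher and the mean was 0.04. The MDM2 difference thus rests on 2 of 7 probe sets past the filter, both of the _x_at class. PPM1D, the phosphatase WIP1 that switches off damage signalling, read 261 and 306 (0.22). Its other probe sets past the filter read 135 and 168 (0.28), and 136 and 129 (-0.07), so it too was split. CCNG1, which encodes cyclin G1, read 222 and 272 (0.28). Its other 4 probe sets lay below the filter and were higher by 0.01 to 0.15. Averaging all probe sets brought the feedback median from 0.28 to 0.11.

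Among the stress and metabolism genes, 6 of 7 were higher, against 49.8% of all genes, with a median of 0.13. TRIAP1, a small protein of mitochondrial lipid transport that restrains apoptosis, read 653 and 854 (0.38). This was its only probe set, of the _s_at class, whose probes are shared between transcripts, and it stood at 0.27 after quantile normalization. SESN1 and SESN2 encode sestrins, which restrain the growth kinase mTORC1. SESN1 read 166 and 200 (0.25), with a difference of 0.15 on its dim probe set. SESN2 read 326 and 355 (0.12), and 110 and 109 (-0.01) on its second. GDF15, a secreted stress hormone, read 508 and 558 (0.13) on its brightest probe set and 284 and 348 (0.28) on the second, and all 5 of its probe sets were higher. It stood at 0.04 after quantile normalization. RPS27L, a ribosomal protein paralog, read 2857 and 3201 (0.16). Its dim second probe set read 78.3 and 74.6 (-0.06), and cross-binding with RPS27 was not tested. TIGAR, which lowers fructose-2,6-bisphosphate, read 132 and 137 (0.04). SPATA18, a mediator of mitochondrial quality control, was the lower one, at 157 and 154 (-0.02), which turned to 0.0002 after loess. Neither TIGAR nor SPATA18 differed by more than the probe error.

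Seen together, CDKN1A, SFN, GADD45A, TNFRSF10B, FAS, MDM2, CCNG1 and TRIAP1 were the 8 members at least 1.2-fold higher. By role these were 3 of 4 arrest genes, 2 of 12 death genes, 0 of 4 repair genes, 2 of 3 feedback genes and 1 of 7 stress and metabolism genes. Over all genes the share was 5.95%, so 0 of 4 repair genes is near that share. In the brightest quintile, which holds CDKN1A, SFN, GADD45A, TNFRSF10B and TRIAP1, the share was 12.4%. Of the 8, 5 rest on 1 probe set past the filter. Only TRIAP1 stayed past this size under every alternative that gave it a value. FAS dropped to 0.25 with a pseudocount of 64, MDM2 to 0.04 and CCNG1 to 0.11 as the mean of their probe sets, and the other 4 after quantile normalization as given above. The roles hold few genes and the design has no test of a difference between them. Of the 17 members with at least 2 probe sets past the filter, 7 were higher on all of them, 3 were lower on all and 7 went both ways. Counted by probe set, 38 of 56 past the filter were higher, against 51% of all probe sets past it, and 63 of all 91 against 42.4%.

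**Figure D3:**
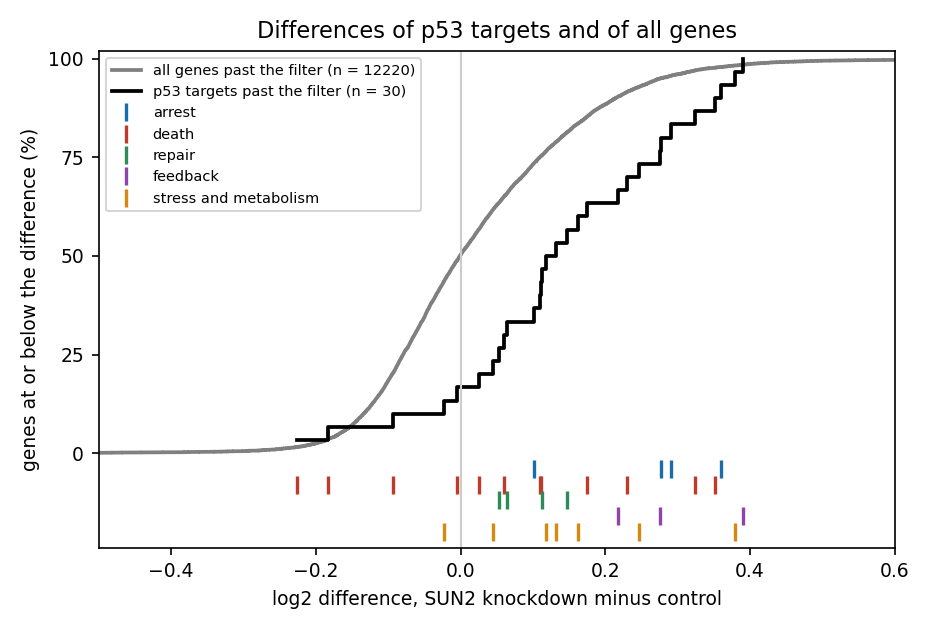
Share of genes (percent) at or below each log2 difference, for all 12220 genes past the filter (grey) and the 30 p53 targets past it (black), with ticks for each target by role underneath. The black curve lies to the right of the grey one over most of its range, which ends at 0.39, and the ticks of the death genes span -0.23 to 0.35.

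The arrays differed along the signal range, so the targets were also set beside genes of like signal. The median difference of all genes ran from -0.04 in the dimmest quintile to 0.10 in the brightest. In the dimmest quintile 3 of 3 p53 targets were higher, against 31.3% of genes, and in the next 4 of 6, against 39.2%. In the middle quintile 7 of 7 were higher, against 45.4%, with a median of 0.11 against -0.01. The fourth held 3 higher of 6, against 57.7%, and is where PMAIP1, CYFIP2 and PERP lie. In the brightest, 8 of 8 were higher, against 75.1%, with a median of 0.28 against 0.10. In all, 26 of 30 lay above the median of their own quintile. At least 1.2-fold higher were 1, 0, 2, 0 and 5 targets, from the dimmest quintile to the brightest. The shares of all genes were 1.23%, 2.13%, 5.44%, 8.59% and 12.4%.

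**Figure D4:**
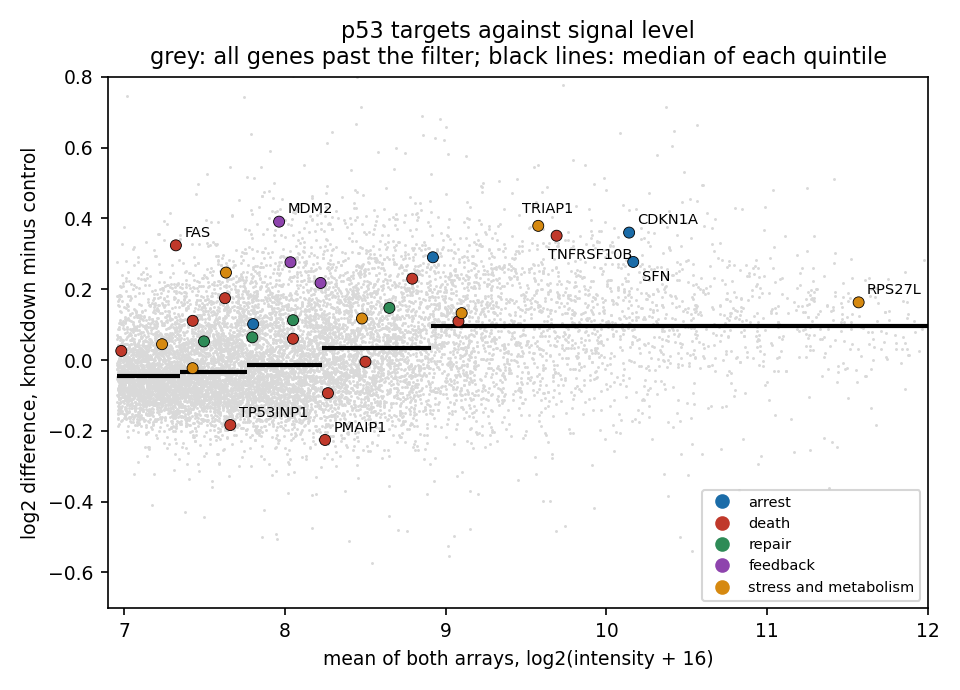
Log2 difference against the mean log2(intensity + 16) of both arrays for the 30 p53 targets (coloured by role) over all genes past the filter (grey, values beyond the axes not drawn), with black lines at the median of each quintile of genes. The lines climb from -0.04 to 0.10 from left to right, and 26 of the 30 coloured points lie above the line of their quintile.

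Other genes of the pathway were read from lists that hold none of these members. Of 23 p53 regulators past the filter, 19 were higher, against 49.8% of all genes, with a median of 0.08. Past 1.2-fold there were 0 in either direction, where 5.95% of all genes were that much higher and 0.884% lower. The coactivator CREBBP was highest at 0.25 (344 and 413), although its 4 kept probe sets spanned -0.07 to 0.37. RCHY1, a ubiquitin ligase for p53, differed by 0.23, the deubiquitinase USP7 by 0.18 and CDKN2A, which encodes p16 and the MDM2 inhibitor ARF, by 0.15. The 3 kept probe sets of USP7 spanned -0.07 to 0.18, and the 3 of CDKN2A spanned 0.04 to 0.15. MDM4, the partner of MDM2, read 295 and 299 (0.02), which turned to -0.02 after quantile normalization.

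Of 31 other genes known to be induced by p53, 23 were higher, against 49.8% of all genes, with a median of 0.10. At least 1.2-fold higher were 4 of them, against 5.95%, and 0 were that much lower, against 0.884%. PLK2, a stress-induced polo-like kinase, led at 1.44 (165 and 476), but another of its kept probe sets gave only 0.03. BLOC1S2, a subunit of a lysosome-positioning complex, was higher by 0.30, the helicase ASCC3 by 0.29 and the autophagy modulator DRAM1 by 0.29. Both probe sets past the filter of BLOC1S2 and of ASCC3 were higher, and DRAM1 had 1.

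Cell cycle genes that are repressed through p53 and p21 stood near the share of all genes when signal level is left aside. Of 19 past the filter, 11 were higher and 8 lower, where 49.8% of all genes were higher, and the median was 0.04. Several were bright, among them CDK1, BIRC5 and CKS2 at 991, 1190 and 2653 in the control. In the brightest quintile 75.1% of all genes were higher, with a median difference of 0.10. The cell cycle genes were not set beside genes of like signal. Past 1.2-fold there were 0 in either direction, against 5.95% of all genes upward and 0.884% downward. The largest differences were upward, for the phosphatase CDC25A (0.26), the mitotic cyclin CCNB1 (0.26), the kinesin KIF23 (0.22) and CKS2 (0.16), a binding partner of cyclin-dependent kinases.

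The promoter matches can be set beside these values. Of the members with an exact half-site or a pair in a window, 7 were measured (AEN, CCNG1, DDB2, FAS, MDM2, RPS27L and SESN1). All 7 were higher, from 0.06 to 0.39, as were 25 of the 30 kept. CDKN1A was also among the higher genes, and its window held neither. Sites outside the windows were not searched, so a window without a match does not show that a gene lacks a p53 site.

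Under 11 alternatives the median over the p53 targets kept ran from 0.08 to 0.15, and the median of all genes from -0.03 to 0.04. Of the 25 higher members, 23 stayed higher under every alternative that kept them, and ZMAT3 and PHLDA3 did not. The alternatives that only change the filter leave a kept gene's value as it is, and median centring raised every difference. Those alternatives could not turn a higher member lower.

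**Figure D5:**
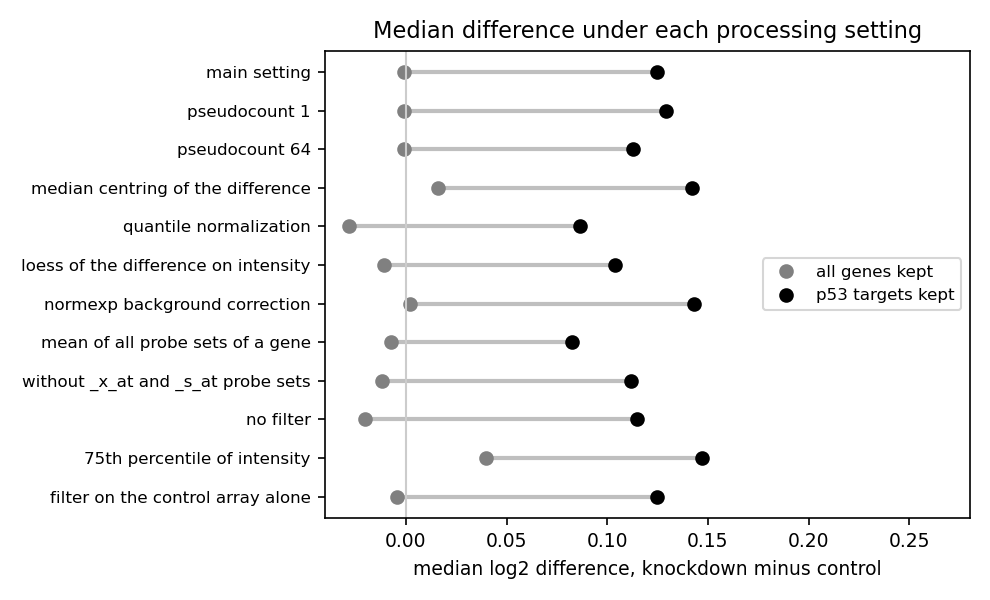
Median log2 difference (knockdown minus control) of the p53 targets kept (black) and of all genes kept (grey) under the main setting and 11 alternatives, without error bars since each group is 1 array. The black points lie between 0.08 and 0.15 and to the right of the grey point in each setting.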

How the data were processed

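A single Affymetrix array was measured per group, and its number limits the precision. The values deposited by the authors are probe set intensities on a linear scale. MAS5 and RMA are named in the submitters' processing notes without saying which made the values, so scaling and centring between the arrays stay unknown. Of 49395 probe sets, 102 controls were set apart. Symbols were updated through the Entrez ID to RefSeq on GRCh38.p14, and only probe sets with 1 symbol were used (44988). From the deposited intensities, log2(intensity + 16) was computed in Python 3.11.15, and genes were reduced and filtered as given above. The alternatives were pseudocounts of 1 and 64, median centring, quantile normalization, loess and normexp (limma 3.58.1), averaging a gene's probe sets, leaving out the _x_at and _s_at classes, and 3 other filters. The gene steps were tested on simulated data. No replicate exists, so sizes of 1.2-fold and 1.5-fold replace a test. The members and lists were chosen with earlier results of these data known. The naming rule took all members, SUN2, MDM4, the transcript of p53 itself, and the 4 genes with the largest difference in each list beside any past 1.5-fold. Its picks among the markers of other cell types are given as a range.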

Additional observations from a re-analysis of the deposited data

How the results depend on the processing

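No paired analysis was possible because there is 1 array in each group, which also leaves nothing to omit. The number of members at least 1.2-fold higher, 8 in the main setting, was 3 after quantile normalization, 5 after loess and 5 when a gene's probe sets were averaged. After quantile normalization 1 member was at least 1.2-fold lower. Over all genes, 376, 476 and 373 were at least 1.2-fold higher under these 3 alternatives. The genes at least 1.2-fold lower numbered 242, 191 and 47, and were 59 with a pseudocount of 64, 179 with normexp background correction and 69 without _x_at and _s_at probe sets. The arrest median was 0.18 after quantile normalization and the feedback median 0.11 with the mean of all probe sets. Other medians moved by less than the probe error. For single named genes, 320 values moved by less than that error and 19 by more, with 0 called genes reversed. The alternatives that only change the filter leave the value of a kept gene as it is. Median centring moves all genes by the same amount, less than that error. Many of the 320 were thus fixed in advance and do not measure stability. Background left in the values makes differences of dim genes too small where it is equal, but 20 of 23 background controls were lower in the knockdown, so decreases may also be overstated.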
